A study of Saccharomyces cerevisiae with 16 samples.

Results

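The experiment described here compared RNA of Saccharomyces cerevisiae cells kept in hydroxyurea for 6 h with RNA of untreated cells. The strain was CDY59, which the labels call wild type. Treated cells were taken at an optical density of 0.5 in the rich medium YPD and then held in 200 mM hydroxyurea. The untreated partner was the same strain in YPD at an optical density of 0.5, so the labels name no untreated culture of the same age, and hydroxyurea and hours in culture cannot be told apart. Both RNAs shared each slide, and the channels were exchanged between the 2 slides: treated RNA was channel 1 of the first and channel 2 of the second. Each slide was read at settings titled faible and fort (French for weak and strong), which the labels do not explain. The members were therefore 4 readings from 2 slides, out of 16 readings from 8 slides over treatment times of 1, 2, 4 and 6 h, and they were chosen by the treatment time in the labels. It is not stated whether the 2 slides held separate cultures, whether the untreated RNA was shared between slides, or what the mating type of the strain is. The p-values below measure the spread between slides, which may be technical.

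Hydroxyurea quenches the radical that ribonucleotide reductase needs, so that deoxynucleotides run short and replication forks slow. In budding yeast the kinases Mec1, Rad53 and Dun1 answer this with transcription of the RNR genes, a hold on late origins and a block of mitosis. Long exposure also meets the general programmes of yeast, in which stress genes are transcribed and genes for ribosomes and growth are turned down.

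All values are log ratios of treated over untreated RNA, set to 0 at the median single-gene spot of each reading and averaged over the 2 readings of a slide. The base of the deposited logarithm was taken as 2 and is not stated. The direction was chosen so that RNR2 and RNR4 came out positive, so every direction here is only the likely one, and neither gene is evidence for it. A total of 3127 genes were measured, 207 of them by several spots, and the ratios carry no level, so that mating type and other markers could not be read as present or absent. Across these genes the 2 slides correlated at r = 0.579, as a description, since genes are not independent replicates. The readings of a slide correlated at 0.942 and 0.958, and the fort readings were wider, with SDs of 0.611 and 0.656 against 0.439 and 0.524 for faible. The median gap between the slides was 0.34 and the median standard error 0.180.

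By limma with Benjamini-Hochberg adjustment over all genes, 188 genes differed between treated and untreated RNA at 6 h, 6.01% of those tested. Of these 52 were higher (1.66%) and 136 lower (4.35%). All 188 had the same sign in all 4 readings, and the smaller of the slide values reached at least 0.5 in absolute size for 168 of them. The smallest change called was 0.68 in absolute log2 ratio, and 118 called genes reached 1, with 33 higher and 85 lower. The count rests on both 6 h slides and on the slides that set the error: it was 13 when the 6 h slide carrying treated RNA in channel 1 was left out, 0 without the other 6 h slide, and 382 without either 2 h slide. The median gene stood at 0.29 as deposited, and without centring 256 genes were higher and 106 lower, so every change here is one against the median gene. Of the 188 genes, 37 also passed for the effect of channel orientation itself, as did 17.3% of all genes.

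**Figure D1:**
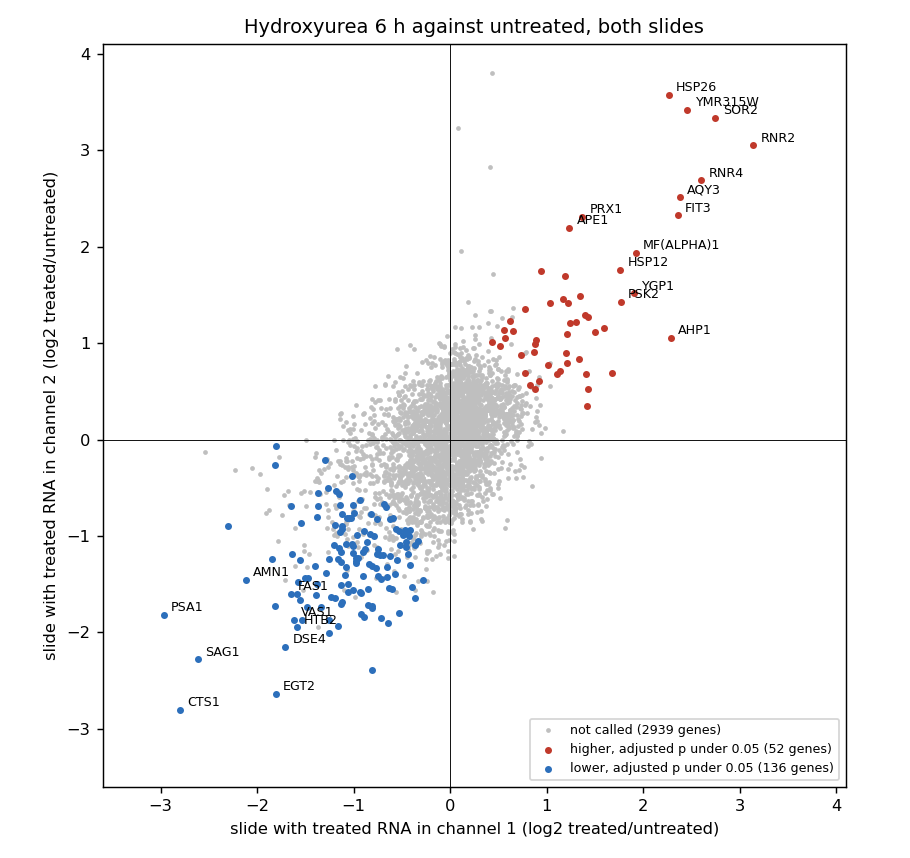
Each point is a gene, with its log2 ratio of treated over untreated RNA on the slide with treated RNA in channel 1 (x axis) and in channel 2 (y axis). The 52 genes called higher (red) and the 136 called lower (blue) lie at the upper right and lower left, and grey genes such as those near the y axis were far from 0 on only a single slide.

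The ribonucleotide reductase genes and their kinase were the members of the replication stress response that were called. RNR2 (YJL026W), which codes for a small subunit of the enzyme, stood at 3.05 (faible) and 3.23 (fort) on the channel-1 slide and at 3.61 and 2.49 on the other. Its partner subunit gene RNR4 (YGR180C) stood at 2.60, 2.61, 3.57 and 1.80 in the same order. Every reading of both was far above the median gene, and the slides gave 3.14 and 3.05 for RNR2 and 2.61 and 2.69 for RNR4. The estimates of 3.10 ± 0.67 (limma adjusted p = 0.0388) and 2.65 ± 0.50 (adjusted p = 0.0220) correspond to 8.54 and 6.26-fold if the base is 2. Their errors were wide, as the model takes the spread from all 4 times and the slides disagreed earlier: at 1 h RNR2 was at -0.98 on the channel-1 slide and 3.56 on the other. DUN1 (YDL101C), the checkpoint kinase that relieves repression of the RNR genes, was not used to set the direction. It read 1.18, 1.31, 1.19 and 1.23 and was higher by 1.23 ± 0.27 (adjusted p = 0.0408), the closest agreement of the 3. All 3 lost the call when centred on all spots, with adjusted p of 0.0778, 0.0583 and 0.0843, and all 3 with no orientation term and without either 6 h slide. RNR2 and DUN1 also lost it with robust moderation (adjusted p of 0.0667 and 0.0556), and DUN1 without either 1 h slide (adjusted p = 0.0724). WTM1, which holds the small subunits in the nucleus, stood at -0.15 ± 0.24 (adjusted p = 0.712).

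The lists of sensors, repair genes and replication machinery held no called gene, where 6.01% of all genes were called. At these list sizes nothing particular to them can be read from the lack of calls. An unadjusted p under 0.05 was more common over all genes, at 830 of 3127, than in any of these lists, and this was not tested. Of 9 measured checkpoint sensor and kinase genes 0 were called by limma and 0 had an unadjusted p under 0.05, with the values of MEC1, CSM3 and RAD53 at 0.37 ± 0.18, 0.26 ± 0.16 and 0.18 ± 0.20. Among 15 DNA repair genes 0 were called by limma and 2 had an unadjusted p under 0.05, with RAD59, RAD16 and RAD50 at 0.44, 0.43 and 0.37 (adjusted p from 0.165 to 0.234). The 33 replication fork and origin genes also had 0 called and 0 at an unadjusted p under 0.05, and their median of 0.03 was close to the -0.01 of all genes. TOP1, RAD27 and POL12 were the farthest from 0 there, at -0.55, -0.50 and -0.41, and the first 2 were near 0 on the channel-2 slide. The smallest change called anywhere in the table was 0.68 in absolute size.

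Histone genes are transcribed in S phase and are known to be turned down when replication is blocked. All 4 measured histone genes, of 10 listed, were below 0 in all 4 readings, against 29.2% of all genes. HTB2 (YBL002W), for histone H2B, read -1.42 and -1.76 on the channel-1 slide and -1.84 and -2.05 on the other, and it fell by 1.77 ± 0.17 (adjusted p = 0.00331). HTA2 (YBL003C), the H2A gene that lies beside it, gave slide values of -0.66 and -1.43 and an estimate of -1.04 ± 0.23 (adjusted p = 0.0408). HTA2 lost the call in 8 of 19 alternatives: as deposited (adjusted p = 0.0569), centred on all spots (0.0637), from faible readings (0.134), with no orientation term (0.118), without either 1 h slide (0.0698) and without either 6 h slide (0.0914 and 0.868). HTB1, the other H2B gene, was at -0.61 (adjusted p = 0.0951) and the variant H2A.Z gene HTZ1 at -0.48 (adjusted p = 0.156), so neither passed. HTB2 and HTA2 were also low at each earlier time, with estimates of -1.95, -1.09 and -1.84 for HTB2 and -1.74, -1.26 and -1.09 for HTA2 at 1, 2 and 4 h.

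The list of genes of daughter cell separation and of the M/G1 phase held the lowest called gene. It is wider than separation itself and includes SIC1, RME1 and FAR1. Genes of the list are transcribed late in mitosis and early in G1, and 5 of 17 measured members fell (29.4%, against 4.35% of all genes) while 0 rose. The chitinase gene CTS1 (YLR286C) had the lowest estimate of all called genes: its readings were -2.50, -3.10, -2.58 and -3.02, and both slides averaged -2.80. That is 6.96-fold lower if the base is 2, with an error of 0.36 and an adjusted p = 0.00683. EGT2 (YNL327W), which codes for a cell wall protein of the septum, read -1.52, -2.09, -2.53 and -2.74 (-2.22 ± 0.31, adjusted p = 0.00825). The glucanase gene DSE4 (YNR067C) gave -1.71 and -2.15 on the 2 slides and AMN1 (YBR158W), whose product restrains mitotic exit, -2.12 and -1.46. SCW11, for a glucanase-like wall protein, was lower by 1.10 in absolute size, at -0.96 and -1.23. All 5 were below 0 in every reading, and the slides that were lower differed from gene to gene. FAR1, NIS1 and DSE3, at -0.81, -0.81 and -0.61, did not pass (adjusted p of 0.193, 0.0787 and 0.0899). In RNA of a whole culture, fewer cells in a stage of the cycle and less RNA per cell cannot be told apart.

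Transcripts of other phases had 1 call in each of 3 lists, where 4.35% of all genes were lower. The B-type cyclin gene CLB1 fell, at -1.14 and -1.27 on the slides (adjusted p = 0.0442), and was the only call among 11 measured CLB2 cluster genes of G2 and mitosis. SUR7, ALK1 and HST3 of that cluster were at -0.63, -0.69 and -0.39 and did not pass. Among 15 G1/S transcripts only TOS6 passed, at -0.73 (adjusted p = 0.0408), and the cyclin gene CLN1 was at -0.62 (adjusted p = 0.0606) and the cohesin gene SMC3 at -0.87 (adjusted p = 0.0806). Of 27 spindle and kinetochore genes only SPC19, of the Dam1 ring, passed (-0.70, adjusted p = 0.0460), with slide values of -1.02 and -0.38. As deposited, without centring, the medians of these 3 lists turned from -0.19, -0.28 and -0.11 to above 0.

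Mating genes moved in opposite directions. MF(ALPHA)1 (YPL187W), the main gene for the alpha-factor pheromone, read 1.56, 2.29, 1.62 and 2.25, and both slides agreed at 1.93 and 1.94. It was higher by 1.93 ± 0.18 (adjusted p = 0.00331). MF(ALPHA)2 (YGL089C), the minor gene for the same pheromone, went the other way, with readings of -1.28, -1.53, -1.21 and -1.42 (-1.36 ± 0.19, adjusted p = 0.00803). SAG1 (YJR004C), the alpha-agglutinin of the cell surface, was the second lowest of all called genes, at -2.41, -2.82, -2.09 and -2.47. Its estimate was -2.45 ± 0.40 (adjusted p = 0.0132), and AGA1, the anchor of the partner agglutinin, fell by 1.09 ± 0.22 (adjusted p = 0.0317). STE3, the receptor for a-factor, averaged -0.66 (adjusted p = 0.0704), but its 2 spots disagreed: one gave -1.40 and -1.21 on the slides and the other 0.13 and -0.15. FUS3 and GPA1, a kinase and a G protein of the pheromone pathway, were at -0.53 and -0.59 and did not pass. In all, 1 of 20 measured mating genes rose (5%, against 1.66% of all genes) and 3 fell (15%, against 4.35%). The list median of 0.23 thus lay on the other side of 0 from most of its calls.

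**Figure D2:**
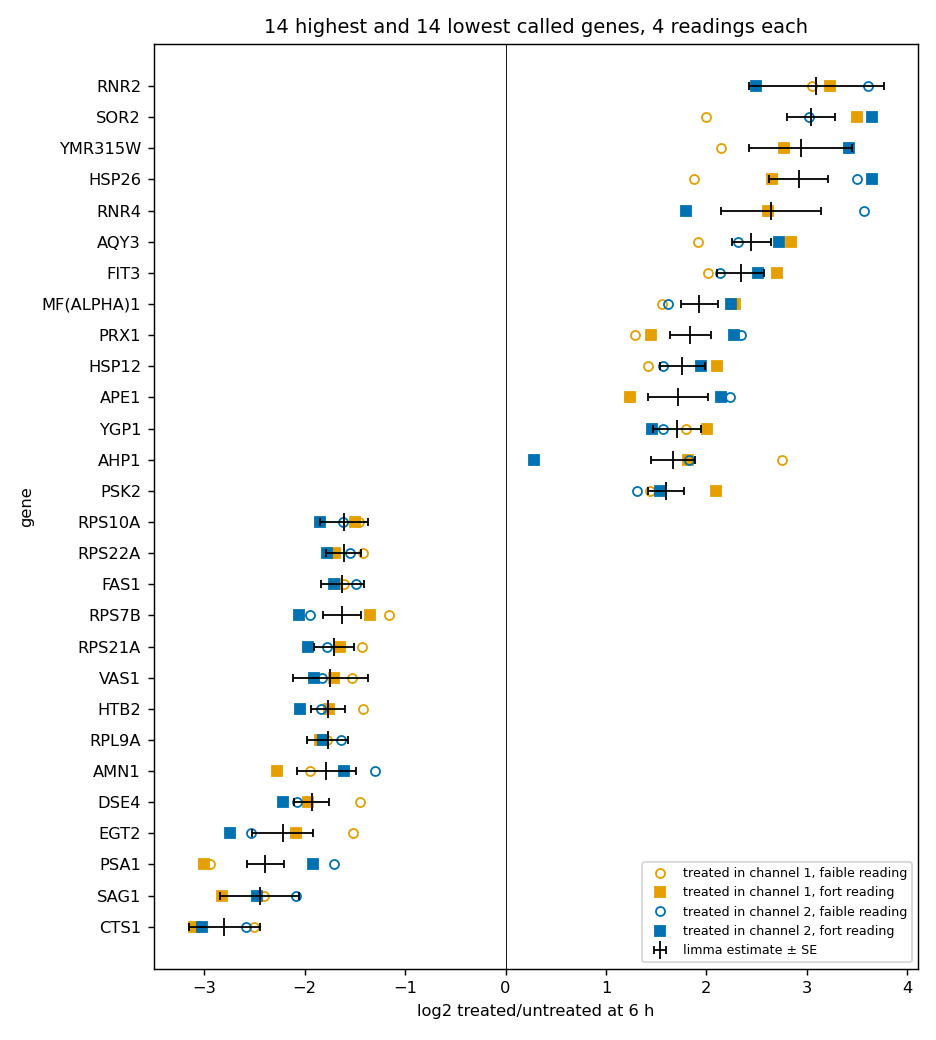
Log2 ratio of treated over untreated RNA in each of the 4 readings (circles faible, squares fort, orange and blue for treated RNA in channel 1 and channel 2) for the 14 highest and 14 lowest called genes, with the limma estimate and its standard error. The readings of CTS1, MF(ALPHA)1 and HSP12 overlap between slides, those of PSA1 and HSP26 separate by slide, and AHP1 spreads from 0.28 to 2.75.

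Among the 14 highest genes were SOR2 and YMR315W, in no list, and 2 peroxiredoxin genes. SOR2 (YDL246C), which codes for a sorbitol dehydrogenase-like protein, read 2.00 and 3.50 on the channel-1 slide and 3.02 and 3.65 on the other. It was higher by 3.04 ± 0.24 (adjusted p = 0.00189), with a smaller error than either RNR gene. YMR315W, an NADPH-linked oxidoreductase gene, stood at 2.46 and 3.42 on the slides (2.94 ± 0.51, adjusted p = 0.0166). Within the redox list, 4 of 23 measured genes rose (17.4%, against 1.66% of all genes) and 0 fell, and 14 were above 0 on both slides against 33.8% of all genes. PRX1 (YBL064C), the mitochondrial peroxiredoxin, stood at 1.37 and 2.31 (1.84 ± 0.20, adjusted p = 0.00513). AHP1 (YLR109W), a peroxiredoxin of the cytosol, read 2.75, 1.82, 1.83 and 0.28 (1.67 ± 0.22, adjusted p = 0.00683). Unlike most called genes it was higher in the faible reading of each slide. GTT2, a glutathione transferase gene, and SRX1, the sulfiredoxin that repairs peroxiredoxins, rose by 1.32 ± 0.20 (adjusted p = 0.0113) and 0.89 ± 0.18 (adjusted p = 0.0301). The flavohemoglobin gene YHB1 was at 0.45 and 1.72 on the slides and did not pass (adjusted p = 0.185). GRX2 and FLR1, at 0.64 and 0.62, did not pass either (adjusted p of 0.0594 and 0.0742).

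The aryl-alcohol dehydrogenase genes are a subtelomeric family known to respond to oxidants. All 4 measured members, of 7 listed, were above 0 in all 4 readings, against 28.1% of all genes. AAD14 rose by 1.35 ± 0.17 (adjusted p = 0.00683), with slide values of 1.40 and 1.30, and AAD15 by 1.00 ± 0.15 (adjusted p = 0.0105), with 1.22 and 0.79. AAD10, at 0.64, was near 0 on the channel-1 slide (0.11), and AAD4 was at 0.43, and neither passed. Members of this family are similar in sequence, as are SOR1 and SOR2 and many ribosomal protein pairs, and probe sequences were not used here, so signal shared between copies cannot be separated.

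Iron uptake genes are switched on by Aft1 when iron is short, and ribonucleotide reductase is an iron enzyme. Of 19 measured genes 2 rose (10.5%, against 1.66% of all genes) and 0 fell. FIT3 (YOR383C), a wall mannoprotein that retains siderophore iron, read 2.02, 2.70, 2.14 and 2.51, and the slides agreed at 2.36 and 2.33. It was higher by 2.34 ± 0.23 (adjusted p = 0.00365). SMF3 (YLR034C), which exports iron from the vacuole, gave 1.20 and 1.69 (1.44 ± 0.24, adjusted p = 0.0151). The rest of the list was much lower: TIS11, for an mRNA decay factor of iron shortage, stood at 0.59 (adjusted p = 0.0830), the siderophore transporter gene ENB1 at 0.51 and the reductase gene FRE3 at 0.46. FIT2, beside FIT3 in the genome and coding for a protein of the same kind, was at 0.36 ± 0.18 (adjusted p = 0.251). Thus 13 of 19 genes were above 0 on both slides, against 33.8% of all genes. The list median was 0.39, with slide medians of 0.16 and 0.52.

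General stress genes, which Msn2 and Msn4 activate under many stresses, had 6 of 27 measured members higher (22.2%, against 1.66% of all genes) and 0 lower. The small heat shock chaperone gene HSP26 (YBR072W) read 1.88, 2.65, 3.50 and 3.65 (2.92 ± 0.29, adjusted p = 0.00365), with every channel-2 reading above every channel-1 reading. HSP12 (YFL014W), which codes for a membrane-stabilising protein, gave 1.77 and 1.76 on the slides (1.76 ± 0.22, adjusted p = 0.00683). The secreted glycoprotein gene YGP1 (YNL160W) gave 1.91 and 1.52 (1.71 ± 0.24, adjusted p = 0.00868). RTC3, SOL4 of the pentose phosphate pathway and the hydrophilin gene GRE1 rose by 1.04, 0.90 and 0.89, with adjusted p of 0.0223, 0.0417 and 0.0226. HSP42, PNC1 and MSC1, at 0.91, 0.88 and 0.81, missed the threshold (adjusted p of 0.0733, 0.0598 and 0.114). The tendency of the list was broader than its calls: 23 of 27 members were above 0 in all 4 readings, against 28.1% of all genes, and the median was 0.50. On values as deposited 16 members were higher, but increases over all genes also went from 52 to 256. The list had 4 higher when centred on all spots, 4 from faible readings and 3 with no orientation term, where all genes had 36, 36 and 8. It had 9 after quantile normalisation and 17 on the 4 h and 6 h slides only, where all genes had 131 and 338. Heat shock chaperone genes were listed apart. Of 19 measured, 3 fell (15.8%, against 4.35% of all genes) and 0 rose: MGE1, the exchange factor of the mitochondrial Hsp70 (-1.12 and -1.69, adjusted p = 0.00977), and SSB1 and SSB2, the ribosome-bound Hsp70 pair (-1.41 and -1.16, adjusted p of 0.0335 and 0.0199). SSC1, the mitochondrial Hsp70 itself, was at -2.23 on the channel-1 slide but -0.32 on the other and did not pass (adjusted p = 0.102).

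Other genes among the 14 highest belong to none of these programmes. AQY3 (YFL054C), of the aquaglyceroporin family, read 1.92, 2.84, 2.31 and 2.72 and was higher by 2.45 ± 0.20 (adjusted p = 0.00189). APE1 (YKL103C), the vacuolar aminopeptidase that is a cargo of selective autophagy, gave 1.24 and 2.20 (1.72 ± 0.30, adjusted p = 0.0163). It was the only call among 29 autophagy, vacuole and peroxisome genes (3.45% higher, against 1.66% of all genes). ATG8, at 0.55 (adjusted p = 0.0790), and AMS1, at 0.62 (adjusted p = 0.181), did not pass. PSK2 (YOL045W), a PAS-domain kinase that steers sugar between storage and wall, gave 1.77 and 1.43 (1.60 ± 0.18, adjusted p = 0.00513).

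Cytosolic ribosomal protein genes made up 27 of the 136 decreases. In the large subunit 15 of 26 measured genes fell and 0 rose, in the small subunit 12 of 23 fell and 0 rose, and these shares of 57.7% and 52.2% compare with 4.35% of all genes. The medians were -1.21 and -1.46, with slide medians of -1.02 and -1.29 for the large and -1.34 and -1.56 for the small subunit. RPL9A (YGL147C) read -1.78, -1.85, -1.64 and -1.82 (-1.77 ± 0.21, adjusted p = 0.00530). RPS21A (YKR057W) read -1.43, -1.65, -1.78 and -1.97 (-1.71 ± 0.20, adjusted p = 0.00530). RPS7B, RPS22A and RPS10A stood at -1.63, -1.61 and -1.61 (adjusted p of 0.00530, 0.00513 and 0.00977). The slides lay close for RPL9A (-1.815 and -1.73) but not for RPS7B (-1.255 and -2.005). RPL28, RPL8B, RPL9B and RPL31A fell by 1.53, 1.47, 1.44 and 1.41, and RPS13 by 1.59, with adjusted p from 0.00683 to 0.0479. Nearly the whole set lay below 0: 25 of 26 and 22 of 23 genes did so in all 4 readings, against 29.2% of all genes. The exceptions were RPL33A, at 0.08 and -0.09 on the slides, and RPS9B, at 0.58 and 0.22. These are averages over spots, and spots of RPL29, RPL7B and RPL21A disagreed. A spot of each gave 0.235 and 0.485, 0.195 and 0.265, and 0.26 and -0.06, while the other was below 0 on both slides. The spots of RPL10, RPL22A, RPL28, RPL39, RPL8B and RPS28A were all below 0. RPL33B, the paralogue of RPL33A, was at -1.34 (adjusted p = 0.0155).

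Several ribosomal protein genes with equally low values were not called. RPS3 had slide values of -1.37 and -1.94 but a standard error of 0.79 (adjusted p = 0.223), and RPS7A gave -1.53 and -1.56 with a standard error of 0.86 (adjusted p = 0.282). RPS1A, RPL4B, RPL30 and RPL15A were at -1.46, -1.26, -1.22 and -1.10 (adjusted p from 0.0738 to 0.137). Their 6 h slides agreed in sign, and the error came from all 4 times, since RPS3 and RPS7A had estimates of -3.22 and -2.73 at 2 h, where the slides were far apart.

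Of 72 measured ribosome biogenesis genes 10 fell (13.9%, against 4.35% of all genes) and 0 rose. In all 4 readings 55 were below 0, against 29.2% of all genes, and the median was -0.55. EBP2, GAR1 and NOP15, which act in maturation of ribosomal RNA, stood at -1.60, -1.37 and -1.32 (adjusted p of 0.0343, 0.00683 and 0.00744). EBP2 leaned on the channel-1 slide, with -2.31 against -0.90, and GAR1 on the other, with -0.90 against -1.84. SAS10 and MAK21 were at -1.10 and -1.08 (both adjusted p = 0.0169). DBP2, RRP14 and NOP7, at -1.08, -0.98 and -0.96, did not pass. For RNA polymerases I and III, 3 of 25 genes fell (12%), and 40% of the list was below 0 on both slides against 33.5% of all genes. RPC10, a subunit shared by the nuclear polymerases, averaged -1.42 (adjusted p = 0.00513), though its 2 spots differed, at -0.28 and -0.69 on the slides against -1.99 and -2.73. RPA34 was at -1.08 and -1.08 (adjusted p = 0.0163) and RPA190 at -0.29 and -1.46 (adjusted p = 0.0476). Among 21 translation factor genes 4 fell (19%, against 4.35% of all genes) and 0 rose, with 20 below 0 in all 4 readings. These were the initiation factor genes TIF11 (-1.32 ± 0.15, adjusted p = 0.00530), TIF3 (-1.15 ± 0.18, adjusted p = 0.0105) and SUI3 (-1.07 ± 0.17, adjusted p = 0.0140), and TMA19 (-1.04 ± 0.23, adjusted p = 0.0406). TIF4631, SUP45 and PAB1 had estimates of -1.42, -1.33 and -1.33 but did not pass. VAS1 (YGR094W), the valyl-tRNA synthetase gene outside these lists, gave -1.62 and -1.87 (-1.75 ± 0.38, adjusted p = 0.0377).

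**Figure D3:**
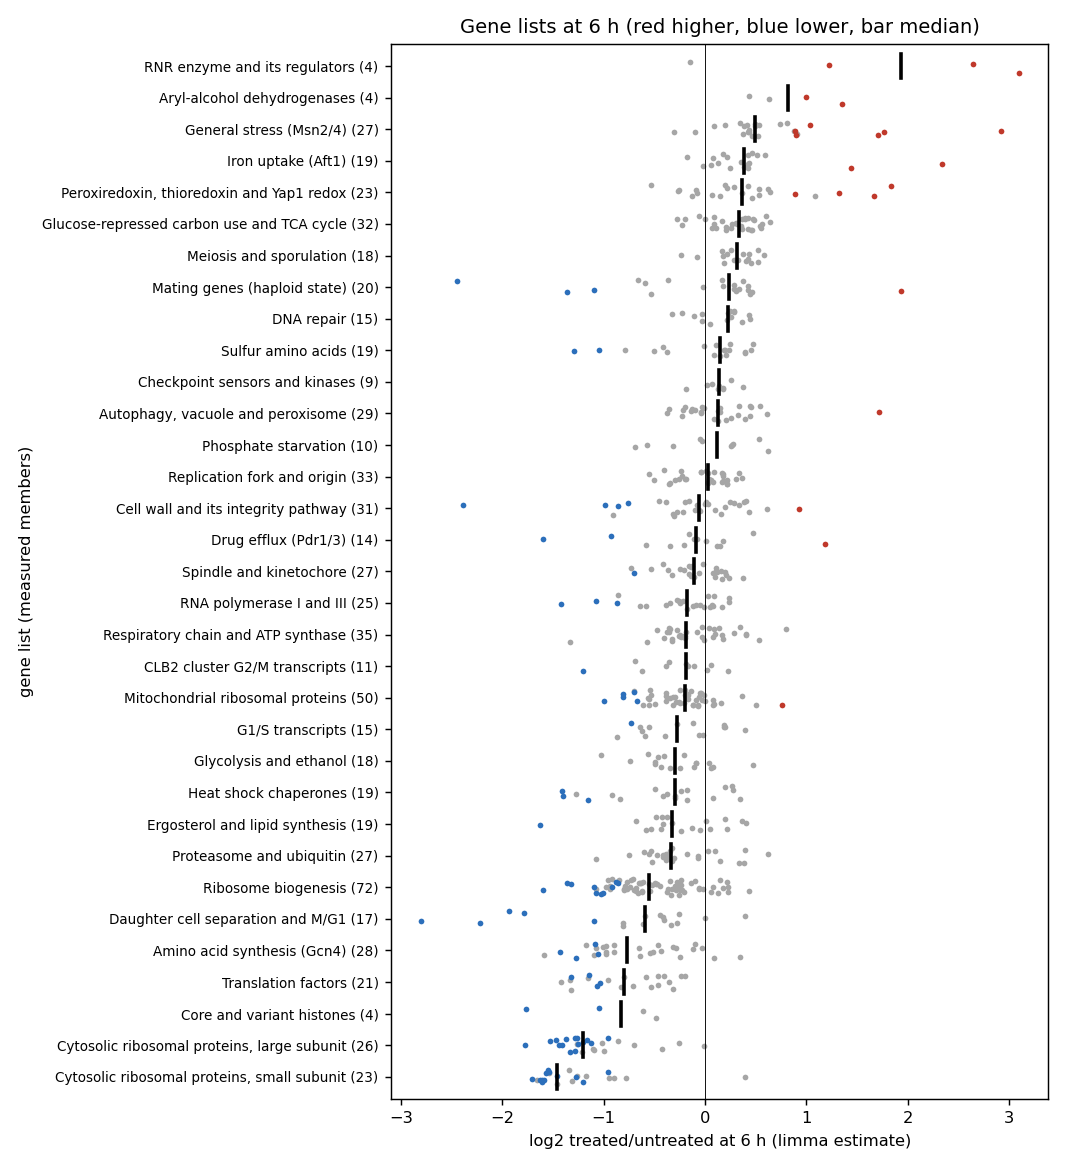
Each point is a measured gene of the list named at the left, placed by its limma estimate (log2 treated over untreated, x axis). Red points were called higher and blue points lower, the bar is the list median, and the ribosomal protein lists at the bottom lie almost wholly below 0 while the general stress list near the top has 6 red points and no blue point.

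Gcn4 is the activator of amino acid synthesis genes. Of 28 measured genes 4 fell (14.3%, against 4.35% of all genes) and 0 rose, and 22 were below 0 on both slides, against 33.5% of all genes. HOM2, of the threonine and methionine branch, gave -1.24 and -1.63 (-1.43 ± 0.26, adjusted p = 0.0183). LEU4 and LEU9, the enzymes that start leucine synthesis, stood at -1.27 and -1.05 (adjusted p of 0.0408 and 0.0460) and the chorismate synthase gene ARO2 at -1.09 (adjusted p = 0.0103). ILV3 gave -1.72 and -1.46 and did not pass (adjusted p = 0.132), and neither did ARO4 (-2.06 and -0.30) or BAT2 (-1.28 and -0.92). Sulfur amino acid genes had 2 of 19 lower (10.5%), SAM4 (-1.29 ± 0.21, adjusted p = 0.0132) and MET17 (-1.05 ± 0.22, adjusted p = 0.0370), both of which act in making methionine. CYS4, MET22 and MHT1 were at -0.79, -0.50 and 0.47 and did not pass, and the list median was 0.15.

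Genes of the cell surface and its lipids were mixed. PSA1 (YDL055C), which makes the GDP-mannose used for wall mannoproteins, was the third lowest of all called genes. It read -2.94 and -3.00 on the channel-1 slide and -1.71 and -1.92 on the other, and fell by 2.39 ± 0.19 (adjusted p = 0.00189). In the cell wall list of 31 measured genes, PSA1 and 3 others fell (12.9%, against 4.35% of all genes) and 1 rose (3.23%, against 1.66%). These others were RHO1, the GTPase of wall synthesis (-0.86, adjusted p = 0.0242), PST1, a wall mannoprotein (-0.76, adjusted p = 0.05), and MLP1 (YKR095W, -0.98, adjusted p = 0.0230). MLP1 here is a protein of the nuclear pore basket that carries a name shared with a wall kinase. The 12.9% thus counts a gene outside the wall. YPS3, a surface protease, rose by 0.93 ± 0.18 (adjusted p = 0.0230). UTR2, WSC3 and PGM1, at -0.91, 0.61 and -0.45, did not pass. FAS1 (YKL182W), the beta subunit of fatty acid synthase, gave -1.65 and -1.60 (-1.63 ± 0.21, adjusted p = 0.00683). It was the only call among 19 ergosterol and lipid genes (5.26% lower, against 4.35% of all genes). ACC1, which feeds fatty acid synthase, was at -0.22 and -1.16 (adjusted p = 0.0543). Among 14 drug efflux genes the polyamine transporter gene TPO4 rose by 1.19 ± 0.17 (adjusted p = 0.00903). The pump gene PDR5 fell (-0.82 and -2.39, adjusted p = 0.0158), as did the lipid exporter gene RSB1 (-0.90 and -0.95, adjusted p = 0.0132). Of the drug efflux list 7.14% thus rose, against 1.66% of all genes, and 14.3% fell, against 4.35%.

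Of 50 mitochondrial ribosomal protein genes 5 fell (10%) and 1 rose (2%), against 4.35% and 1.66% of all genes. RSM23 fell by 1.00 ± 0.16 (adjusted p = 0.0132) with slide values of -0.36 and -1.64, and MRPL20, RSM26 and MRPL24 were at -0.81, -0.81 and -0.70. MRPL40 rose by 0.77 ± 0.17 (adjusted p = 0.0395). The median of the list, -0.20, turned above 0 on values as deposited, where 2 were higher and 0 lower. Over all genes 830 of 3127 had an unadjusted p under 0.05, the base for the unadjusted counts that follow. Among 32 glucose-repressed genes 0 were called by limma and 10 had an unadjusted p under 0.05. Of the 32, 21 were above 0 on both slides, against 33.8% of all genes, and 1 was below 0 on both, against 33.5%. PXA2, FOX2 and CIT1 led at 0.64, 0.60 and 0.57 (adjusted p of 0.0771, 0.0996 and 0.130). The lists of glycolysis and ethanol (18 genes), respiratory chain and ATP synthase (35), proteasome and ubiquitin (27) and phosphate starvation (10) also had 0 called by limma, and at an unadjusted p under 0.05 they had 3, 5, 6 and 2. ENO1, CBP3, RPN8 and PHO5 were the farthest from 0 in these, at -1.03, -1.34, -1.07 and -0.69. Meiosis and sporulation genes, a mark of another cell state, had 0 of 18 called by limma and 6 at an unadjusted p under 0.05, and GAS4, CDA2 and IME2 were at 0.58, 0.52 and 0.52. Yet 13 of the 18 were above 0 in all 4 readings, against 28.1% of all genes. The median was 0.32, against 0.34 for the glucose-repressed list. The 33 lists held 744 measured genes of 1324 listed, and 100 of the 188 called genes, 22 higher and 78 lower.

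The agreement of the slides can also be counted with no variance model. On both 6 h slides, 90 genes reached 1 in absolute log2 ratio with the same sign, of which 26 were higher (0.831% of all genes) and 64 lower (2.05%). No gene reached 1 on both slides with opposite signs. Of the 90, 74 were also called by limma. The other 16 were all lower and came mostly from the translation machinery. They were 4 ribosomal protein genes of the small subunit (RPS0B, RPS1A, RPS3 and RPS7A), RPL30, and the translation factor genes PAB1, TIF4631 and SUP45. The others were the tRNA synthetase genes GRS1 and SES1, ARC1, the RNA helicase genes DBP2 and SUB2, ILV3, SAH1 and RAS2. These 16 were named after their values were seen. The count was 70 on values as deposited, with 44 higher and 26 lower.

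The comparison of 6 h with 4 h asked whether the response still moved at its end, and 0 genes (0%) differed by limma, against 38 at an unadjusted p under 0.05. The median standard error of this difference was 0.255. For SOR2 the estimates were 0.54, 1.67, 1.60 and 3.04 at 1, 2, 4 and 6 h, and its slides gave 1.67 and 1.53 at 4 h against 2.75 and 3.34 at 6 h. The difference of 1.45 ± 0.34 had an unadjusted p = 0.00285 and an adjusted p = 1. MF(ALPHA)1 was at 0.25, 0.59, 0.90 and 1.93, and SAG1 at -0.55, 0.24, -1.12 and -2.45. HSP12 was at 0.81, 0.66, 0.91 and 1.76. For each of these 4 genes the 6 h estimate was the farthest from 0, and none of these steps passed. By contrast EGT2 stood at -1.76, -2.50, -2.65 and -2.22 and DSE4 at -1.55, -2.12, -2.12 and -1.93, so that they were as low at 2 h as at 6 h.

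**Figure D4:**
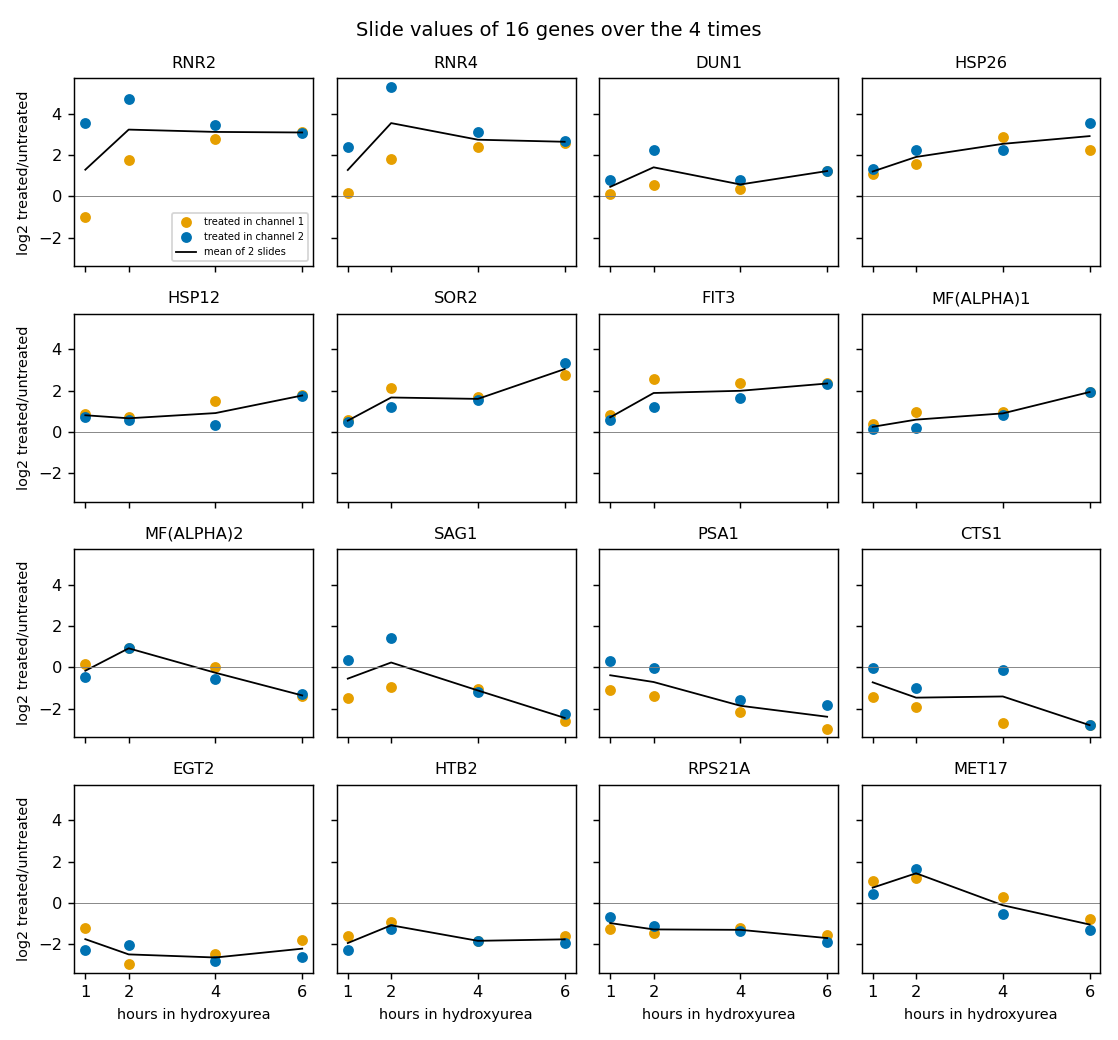
Log2 ratio of treated over untreated RNA against hours in hydroxyurea for 16 genes, with each slide as a point (orange and blue for treated RNA in channel 1 and channel 2) and the mean of the 2 slides as a line. RNR2 and RNR4 spread widely between slides at 1 and 2 h and agree at 6 h. SOR2, MF(ALPHA)1, SAG1, PSA1 and CTS1 are farthest from 0 at 6 h, and they were named for their size at 6 h, which favours this.

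The comparison of 6 h with the mean of 1 and 2 h also had 0 genes (0%) called by limma. At an unadjusted p under 0.05 there were 445, with a smallest adjusted p = 0.0599 and a median standard error of 0.221. PSA1 came nearest, with -0.38, -0.71, -1.86 and -2.39 over the 4 times and a difference of -1.85 ± 0.23. MF(ALPHA)2 was at -0.17, 0.92, -0.26 and -1.36, a difference of -1.74 ± 0.23. MET17, of methionine synthesis, crossed 0, with 0.74, 1.43, -0.12 and -1.05 and a difference of -2.13 ± 0.27. RSM23 crossed it too, with 0.35, 0.60, -0.23 and -1.0. These 4 shared the adjusted p = 0.0599. When the 2 h slide carrying treated RNA in channel 1 was left out, 57 genes passed in this comparison, with 4 higher and 53 lower. Whether slides of different times shared untreated RNA is not stated.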

How the data were processed

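Total RNA was extracted with a column kit, labelled indirectly and hybridised to 2-colour yeast slides, per the labels' protocols. The authors deposited log ratios of the channels, taken here as log2. The largest absolute value was 6.16, and if the logarithm is natural, folds are larger. Reading medians from -1.03 to 0.45 showed no centring by the authors, and channel intensities were not used here, so signal over background is unknown and no intensity-dependent correction was made. Of 6912 spots, 3344 carried a single gene name, 387 carried several and 3181 none. Spots of a gene were averaged, and all but 1 of the single-gene spots were matched by gene number to a reference annotation, used for names only.

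Ratios were turned to treated over untreated RNA. Of 4 genes set to fix the direction (RNR2, RNR3, RNR4 and HUG1) 2 were measured. The median over single-gene spots was subtracted from each reading, and both readings of a slide gave 1 mean. limma 3.58.1 in R 4.3.3 fitted 8 slides with a coefficient for each time and 1 for channel orientation (3 residual and 4.89 prior degrees of freedom). All tests were two-sided, adjusted over 3127 genes, at a threshold of 0.05, and were tested on simulated data. Errors after ± are standard errors. The small number of slides limits the precision. Genes were named by size (the 14 highest and 14 lowest called) and, in each list, up to 5 called and 3 not called, with RNR2, RNR4, DUN1 and the histones. The genes and lists were chosen with earlier results of these data known, so lists are described by counts, without a test. Alternatives changed the centring, normalisation, reading, orientation term, variance model and slides. Promoter motifs were not analysed here.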

Additional observations from a re-analysis of the deposited data

Results flagged for a closer look

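Spots outside the gene table carried signal of the same size as those in it. Of 3568 spots that named no gene or several genes, 98 reached 1 in absolute log2 ratio with the same sign on both 6 h slides, 2.75% against 100 of 3344 single-gene spots (2.99%). They drew attention because no comparison above uses them. Of the 98, 13 were higher and 85 lower, and their slide means ran from -2.18 to 3.97, the upper end lying above the 3.10 of RNR2, the highest named gene called.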

How the results depend on the processing

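The count of 188 genes at 6 h was 362 on values as deposited, 397 after quantile normalisation, 109 from faible and 290 from fort readings alone, 28 (8 higher and 20 lower) with no orientation term, 899 on the 4 h and 6 h slides only (1 residual degree of freedom), 306 from the 6 h slides alone and 449 with 16 readings and slide as a random block. It was 138 when centred on all spots, 165 with robust moderation and 168 for genes with 1 spot. Leaving out each slide in turn gave 0 to 382. The split after quantile normalisation was 131 higher and 266 lower. The difference of 6 h from 4 h had 0 genes in every alternative run. The difference from 1 and 2 h had 30 on values as deposited, 7 after quantile normalisation, 1 from fort readings and 0 to 57 with a slide left out. The 90 genes past 1 on both slides became 347 at a threshold of 0.5, 23 at 1.5 and 218 to 238 on a single slide. Many alternatives alter the error and not the estimate, such as robust moderation or leaving out a slide of 1, 2 or 4 h. All called genes also had the same sign on both 6 h slides, so a kept direction was largely set in advance. With that limit, none of the 81 called genes named by the rule changed direction in its 18 or 19 alternatives. Of these, 72 and 81 lost the call without the channel-1 and the channel-2 slide of 6 h, 60 with no orientation term, 28 from faible readings, 19 when centred on all spots, 17 without either 1 h slide, 16 as deposited and 11 with robust moderation. SOR2, HSP26, FIT3, AQY3, MF(ALPHA)1 and DSE4 lost it in 1 of 19 each, and PST1 in 14, TOS6 and SPC19 in 10, and MRPL40, MRPL24, RPA190 and LEU9 in 9. The causes were not tested. No paired analysis was possible because each time has its own 2 slides and treated and untreated RNA already share a slide.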

Other observations

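Some called genes fell outside the lists above, and those named here were chosen after their values were seen. They belong to no list, so no count of their pathways was made. SHM2, the cytosolic serine hydroxymethyltransferase, gave -1.40 and -1.61 on the slides (limma adjusted p = 0.0160), ADE6 of purine synthesis -0.81 and -1.75 (adjusted p = 0.00744), the purine salvage gene APT1 -0.98 and -1.28 (adjusted p = 0.0199) and MTD1 -0.76 and -0.83 (adjusted p = 0.0360). The subunit genes EGD1 and EGD2 of the complex that meets nascent chains at the ribosome stood at -1.06 and -1.26, and CCT5 of the cytosolic chaperonin at -1.42. SEC31 of the COPII coat was at -1.15, SRP68 and SRP21 of the signal recognition particle at -0.90 and -0.72, and LAG1, for a ceramide synthase, at -1.55. RAP1, the activator of ribosomal protein genes, was at -0.86, with slide values of -0.42 and -1.31 (adjusted p = 0.0223).

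Increases outside the lists were chosen for naming in the same way. GAP1, the general amino acid permease, gave 0.78 and 1.35 (adjusted p = 0.0158) and PUT1 of proline use 0.87 and 0.91 (adjusted p = 0.0169). The thiamine synthesis genes THI11 and THI12 rose by 0.93 and 0.73, and THI13, a near-identical copy, was at 0.84 (adjusted p = 0.0584). SSU1, the sulfite pump, gave 1.30 and 1.22, and ECM4, an omega-class glutathione transferase, 1.04 and 1.42, and its neighbour YKR075C 1.21 and 1.09. YOR385W, a gene without a standard name that lies near FIT3, gave 1.43 and 1.27 (adjusted p = 0.0102). FRE5, which lies between YOR385W and FIT3, stood at -0.05 and 0.83 and did not pass. Genes with no standard name made up 17.3% of the increases (9 of 52), 2.21% of the decreases (3 of 136) and 7.2% of genes tested.

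SOR1, a near copy of SOR2, did not follow it on both slides. It read 0.30 and 0.52 on the channel-1 slide and 2.44 and 3.20 on the other, while SOR2 was at 2.00 or more in every reading. IRC10 and ESC8 had the widest gaps of all genes, with slide values of 0.44 and 3.80 for IRC10 and 0.08 and 3.23 for ESC8. STM1 was the widest on the low side, at -2.55 and -0.13. None of SOR1, IRC10, ESC8 and STM1 passed (adjusted p of 0.100, 0.0722, 0.0878 and 0.179).

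The fort reading was farther from 0 than the faible reading for 185 of the 188 called genes on the channel-1 slide and for 175 on the other, and for 174 on both. On the channel-2 slide RNR2, RNR4 and AHP1 went the other way by over 0.5, with faible and fort values of 3.61 and 2.49, 3.57 and 1.80, and 1.83 and 0.28. RNR2 and RNR4 fix the direction, and AHP1 is also among the 14 highest.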
